A study of Mus musculus with 63 samples.

Results

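miR-126a is the microRNA (miRNA) encoded in an intron of Egfl7, a gene of the vascular endothelium, and it was followed here across 4 sorted kidney cell types and 4 stages of a reversible injury. Its members are the 2 arms of the hairpin, mmu-miR-126a-5p and mmu-miR-126a-3p, taken by name from a table of 2110 miRNA loci. The loci of miR-126b, annotated on the opposite strand of the same hairpin, were left out of the members and used only as a check of the counting.

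Small RNA sequencing (sRNA-Seq) had been carried out on 63 libraries from 16 male C57BL/6 mice aged 8 to 12 weeks. Mice underwent a sham operation, unilateral ureteric obstruction for 2 days (UUO-2) or 7 days (UUO-7), or obstruction for 7 days and then its reversal for 14 days (R-UUO), with 4 mice a group. From the digested renal cortex of each mouse, 4 populations were sorted: PDGFR-β+ cells, a gate that takes in pericytes and fibroblasts alike, LTL+ proximal tubular (PT) cells, F4/80hi macrophages (Macs) and CD45-CD31+ endothelial cells (ECs). Every group held 4 libraries except PDGFR-β+ cells with UUO-7, which held 3 because the authors had removed 1 as an outlier. The sequenced mice were those nearest their group's mean for the injury transcript Havcr1. Libraries of 1 condition with the same number in their labels were taken as from the same mouse.

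A miRNA is cut from its hairpin as a duplex of a 5p and a 3p arm, and each arm can be loaded into the silencing complex, where bases 2 to 8 of the arm, the seed, select target transcripts. miR-126 is best known in endothelium, where the 3p arm supports vascular integrity and VEGF signalling by repressing the pathway inhibitors Spred1 and Pik3r2 and also targets the adhesion molecule Vcam1. The 5p arm is known to repress Dlk1, an inhibitor of Notch signalling, in endothelial proliferation. No mRNA was measured in these libraries, so none of these targets is described.

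The 5p locus lay at chr2:26591365-26591385 and the 3p locus at chr2:26591402-26591423 in the files' coordinates (GRCm38). In the GENCODE annotation of that build both lay within the Mir126a hairpin gene, on the plus strand, and inside Egfl7 (chr2:26580014-26593120, plus strand). They were exonic only in exon 4 of the retained-intron transcript Egfl7-206 and intronic in the coding transcripts of Egfl7. They also lay within the span of Gm20532, a gene model on the same strand. The RefSeq sequences (GRCm38.p6) of the 3p arm and of the miR-126b arms follow, 5′ to 3′ with the seed in capitals, because these loci overlap.
miR-126a-3p: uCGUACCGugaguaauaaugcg
miR-126b-5p: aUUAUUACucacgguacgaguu
miR-126b-3p: cGCGUACCaaaaguaauaaugug
No other mature name among 1679 in the RefSeq table had the 3p arm's seed. The miR-126a-3p and miR-126b-5p arms overlapped by 19 bases on opposite strands and were complementary at all 19.

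The counts of the overlapping loci were almost the same. Over 63 libraries miR-126a-5p held 9642109 reads and the overlapping miR-126b-3p held 9645277, while miR-126a-3p held 1917293 and miR-126b-5p held 1918865. The 2 loci of a pair were equal in 29 libraries for each arm, and the largest gap in any library was 2.13% of the miR-126a count. Reads of the hairpin were thus counted at the loci of both strands, and the counts cannot assign a read to miR-126a or miR-126b. In ECs the 4 loci together took 8.79% to 22.0% of a library's counts, so the double entry weighed on EC library totals.

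Total counts ran from 616565 to 10819385 per library and were lowest in PT cells and highest in ECs. Levels are given as CPM, counts scaled to library size in the usual way, after TMM scaling over all libraries, in which 3 counts, the limit taken for a count of 0, correspond to between 0.277 and 4.87 unscaled CPM. Every library held at least 78 reads of either arm. Among 47 libraries of the other 3 gates, 46 had their own marker miRNAs highest of the 3 marker sums, and the exception was R-UUO replicate 1 of the PT cells, with 26002 CPM of PDGFR-β+ markers against 16105 CPM of PT markers. The 6 Mac markers (miR-142a, miR-223 and miR-511 arms) ran from 20.8 to 194 CPM in sum in ECs and from 14936 to 42187 CPM in Macs. The 5 PT markers (miR-192, miR-194 and miR-215) summed to between 1455 and 4022 CPM in ECs and between 16105 and 130340 CPM in PT cells, and the 8 PDGFR-β+ markers (miR-143, miR-145a, miR-199a and miR-214) to 7730 to 46296 CPM in ECs against 93225 to 403152 CPM in PDGFR-β+ cells. The EC gate had no marker miRNA apart from miR-126a itself.

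Both arms were far higher in ECs than in any other sorted population, at every stage. Across the 16 EC libraries miR-126a-5p had a lowest level of 68771, a median of 121637 and a highest of 147514 CPM, and miR-126a-3p a lowest of 18531, a median of 23953 and a highest of 28358 CPM. Among 2009 loci left when overlapping or identical loci were counted once, the 5p arm ranked 2 to 4 and the 3p arm 9 to 14 in the EC libraries. Together the arms made up 4.39% to 11.0% of EC counts. The lowest share was that of R-UUO replicate 4, a library that stood apart with a TMM factor of 0.471, and the other EC libraries lay at 7.77% or above. Without that mouse the mean EC level was 124616 CPM for 5p, against 120265 CPM with it, and 24458 CPM for 3p, against 24282 CPM.

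Outside ECs the same arms were moderately abundant, not absent. In Macs miR-126a-5p ran from 252 through a median of 886 to 2856 CPM and miR-126a-3p from 70.3 through 194 to 530 CPM. In PT cells the 5p arm ran from 472 through 671 to 1625 CPM and the 3p arm from 73.1 through 132 to 386 CPM. In PDGFR-β+ cells the 5p arm ran from 355 through 1246 to 2614 CPM and the 3p arm from 110 through 359 to 910 CPM. No library of another cell type came near the EC range. The lowest EC level of the 5p arm was 68771 CPM (R-UUO replicate 4), against a highest value elsewhere of 2856 CPM. That of the 3p arm was 18531 CPM (UUO-2 replicate 1), against 910 CPM. Because miR-126 was chosen as an endothelial miRNA, this separation is a description and was not tested.

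**Figure D1:**
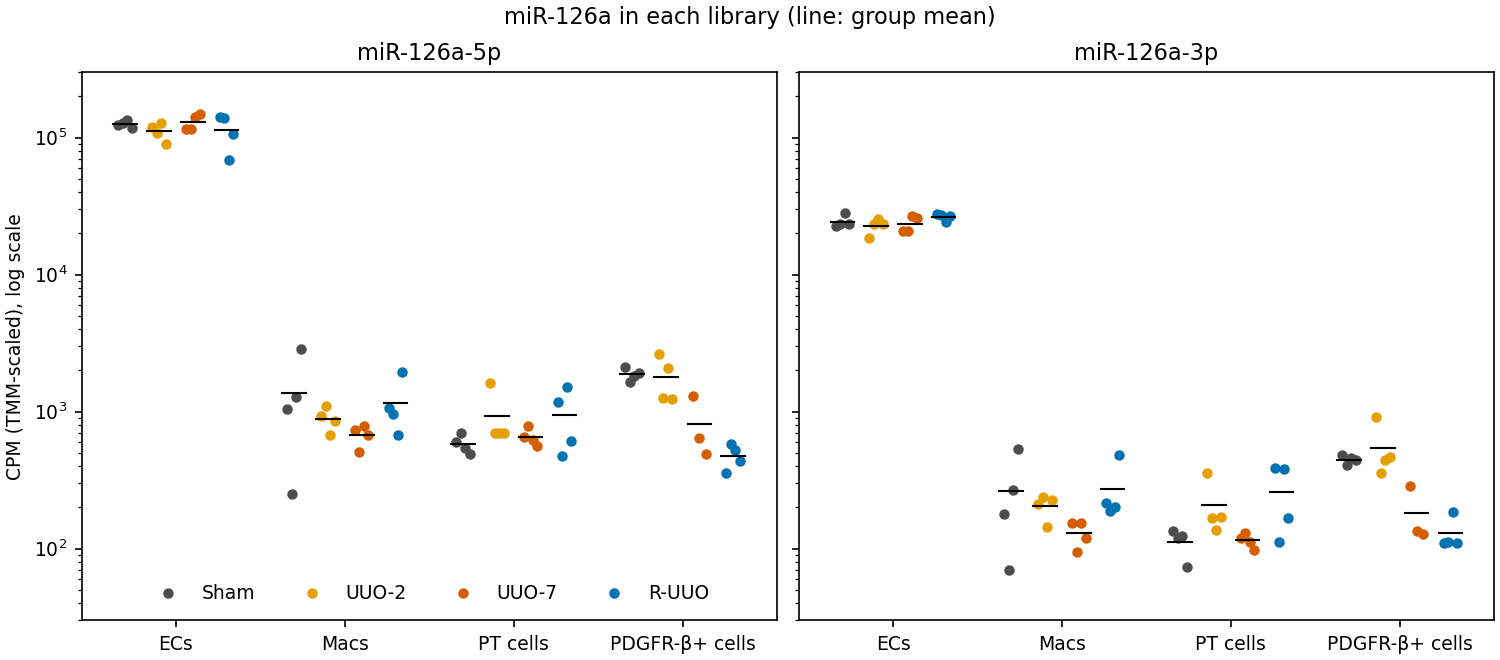
Level of each arm in each of the 63 libraries, in TMM-scaled CPM on a log axis, by cell type and coloured by condition, with a line at each group mean. All EC points lie at 18531 CPM or above, all other points at 2856 CPM or below, and the PDGFR-β+ points step down from sham and UUO-2 to UUO-7 and R-UUO.

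Within a mouse, the level of the 5p arm in Macs was a median 0.765% of that in the ECs taken as from the same kidney (0.198% to 2.43%, 16 mice). The corresponding median was 0.557% in PT cells (0.337% to 2.20%, 16 mice) and 1.15% in PDGFR-β+ cells (0.253% to 2.18%, 15 mice). For the 3p arm the medians were 0.785%, 0.585% and 1.52%, and the highest value of any mouse was 4.91%, in PDGFR-β+ cells of UUO-2 replicate 1. On the log2 scale ECs exceeded the other cell types of the same mouse by at least 4.35 for the 3p arm and at least 5.36 for the 5p arm. These percentages and differences depend on the scaling. With library size in place of TMM the mean 5p level was 80489 CPM in ECs (120265 with TMM) and 1665 CPM in Macs (1020 with TMM). It was 894 CPM in PT cells (778 with TMM) and 947 CPM in PDGFR-β+ cells (1265 with TMM). In sorted bulk samples, a few ECs in another gate and a low level in every cell of that gate cannot be told apart.

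The contrast was set beside that of the other miRNAs abundant in ECs. Of 130 loci with a mean of at least 100 CPM in ECs, the median locus stood in Macs at 77.7% of its EC level, in PT cells at 76.5% and in PDGFR-β+ cells at 97.3%. Ordered from the lowest percentage upwards, miR-126a-5p came 1st in Macs (0.848%) and PT cells (0.647%) and 2nd in PDGFR-β+ cells (1.03%), behind miR-150-5p (1.02%), a lymphocyte-enriched miRNA. The 3p arm came 2nd in Macs (0.894%) and PT cells (0.717%) and 3rd in PDGFR-β+ cells (1.34%). The order depended on the stage: in sham the 5p arm came 6th in Macs, 4th in PT cells and 3rd in PDGFR-β+ cells, and the lowest locus there was miR-127-3p in Macs and PT cells and miR-139-5p in PDGFR-β+ cells. In UUO-7 and R-UUO the 2 arms held the 2 lowest places in all 3 cell types.

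**Figure D2:**
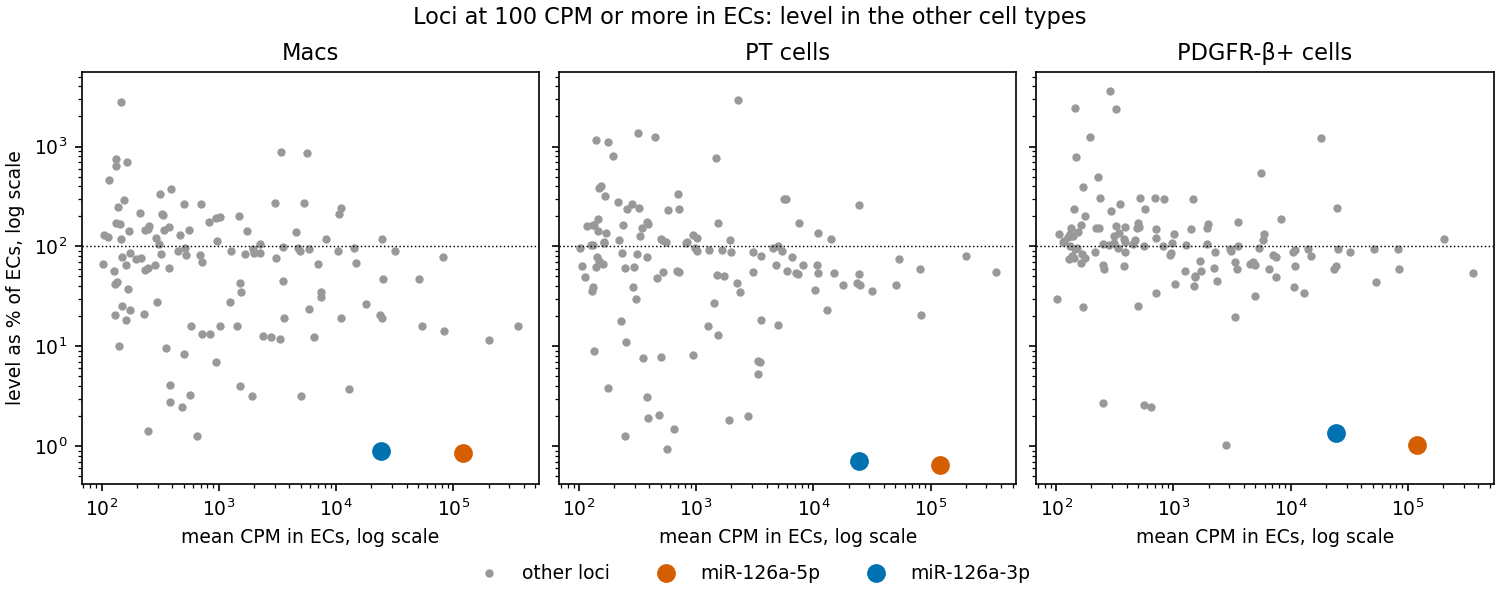
Each point is 1 of 130 loci with a mean of at least 100 CPM in ECs, with its mean EC level on the x axis and its level in Macs, PT cells or PDGFR-β+ cells as a percentage of ECs on the y axis, both on log scales. The miR-126a arms sit at 0.647% to 1.34%, while the median locus sits at 76.5% to 97.3%.

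The order of the levels below ECs was then examined by edgeR's quasi-likelihood test on the means of the 4 conditions, with a call at a Benjamini-Hochberg adjusted p below 0.05 and a fold change above 1.5. By mean CPM the order for each arm was PDGFR-β+ cells (1265 ± 735 for 5p and 335 ± 219 for 3p, SD, n = 15), Macs (1020 ± 616 and 217 ± 125, n = 16) and PT cells (778 ± 348 and 174 ± 103, n = 16). No neighbours in that order were called as different. PDGFR-β+ cells exceeded Macs by 0.11 (SE 0.18, edgeR adjusted p = 0.615) for 5p and 0.40 (SE 0.18, edgeR adjusted p = 0.0387, below the fold required) for 3p, where 68.7% of all loci tested were called. Macs exceeded PT cells by 0.37 (SE 0.18) and 0.36 (SE 0.18) on the log2 scale, not called, against 62.3% of all loci. Of the ends of the order, PDGFR-β+ and PT cells, the 3p arm was called (log2 difference 0.76, SE 0.18, edgeR adjusted p = 0.00018) and the 5p arm was not (0.49, SE 0.18, edgeR adjusted p = 0.0158), against 63.2% of all loci. This order rested on the scaling. With library size in place of TMM the PDGFR-β+ minus Mac difference was -0.96 for 5p and -0.68 for 3p, both called, and the PDGFR-β+ minus PT difference was no longer called for 3p (0.23), while the median of all loci moved from 0.06 to -0.90 in the former comparison and to -0.45 in the latter.

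Injury and reversal left miR-126a in ECs without a called change in either arm. In sham ECs miR-126a-5p measured 123524, 127175, 134022 and 117355 CPM in replicates 1 to 4. In UUO-2 it measured 119749, 108519, 128423 and 89950 CPM, and in UUO-7 114992, 115246, 142080 and 147514 CPM. In R-UUO it measured 140441, 139759, 68771 and 106718 CPM. The conditions overlapped throughout, and R-UUO replicate 4 was the lowest of the 16. The log2 changes from sham were -0.01 (95% interval -0.38 to 0.35) at UUO-2, 0.15 (-0.22 to 0.51) at UUO-7 and -0.04 (-0.40 to 0.32) at R-UUO, and R-UUO differed from UUO-7 by -0.19 (-0.55 to 0.18).

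The 3p arm in ECs had no called change either, although its interval at R-UUO lay above 0. It measured 22576, 23247, 28358 and 23216 CPM in sham, 18531, 23579, 25315 and 23537 CPM in UUO-2, 20910, 20636, 26997 and 25678 CPM in UUO-7, and 27793, 27189, 24327 and 26616 CPM in R-UUO. The log2 changes come from fits scaled within a cell type, whereas the CPM are scaled over all libraries. In 5 of the 32 changes of the arms within a cell type, the fit and the difference of mean log2 CPM have opposite signs. Those of the 3p arm in ECs at UUO-2 and UUO-7 are among the 5, since its mean fell short of sham in CPM. Its log2 changes from sham were 0.05 (95% interval -0.18 to 0.28) at UUO-2, 0.05 (-0.18 to 0.28) at UUO-7 and 0.23 (0.0011 to 0.46, edgeR adjusted p = 0.145) at R-UUO, with 0.18 (-0.05 to 0.41) between R-UUO and UUO-7. For comparison, 1.71% of 469 loci were called in ECs at UUO-2, 11.5% at UUO-7 and 16.8% at R-UUO against sham, and 1.07% between R-UUO and UUO-7. The comparisons with sham share the same sham libraries. Without R-UUO replicate 4 the changes at R-UUO were 0.20 (edgeR adjusted p = 0.294) for 5p and 0.32 (edgeR adjusted p = 0.0471, below the fold required) for 3p, neither called. Over the 16 EC libraries the SD of log2 CPM was 0.17 for the 3p arm and 0.28 for the 5p arm, against a median of 0.33 over the 130 EC-abundant loci, of which 12 and 48 had a smaller SD. Without R-UUO replicate 4 the SDs were nearly alike, at 0.18 and 0.19, against a median of 0.30.

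Some other miRNAs that have been studied in endothelial cells were called in the same libraries, though most were not. Of 35 such names, chosen with earlier results of these data known and leaving out miR-126a, 38 loci were tested in ECs. At UUO-2, 1 rose and 0 fell (2.63% of the list, against 1.71% of all loci). At UUO-7, 7 rose and 1 fell (21.1% of the list, against 11.5% of all loci), with a median log2 change of 0.23 against -0.05 over all loci. At R-UUO, 12 rose and 1 fell (34.2%, against 16.8% of all loci), with a median of 0.38 against 0.04, and between R-UUO and UUO-7 there was 1 that rose (2.63%, against 1.07%). The shares at UUO-2 and between R-UUO and UUO-7 rest on 1 locus each. At UUO-7 and at R-UUO the loci that rose include loci that share a name, so these are not counts of separate miRNAs. miR-155-5p, induced by inflammatory signalling in many cell types, rose by 1.48, 2.13 and 1.75 on the log2 scale at UUO-2, UUO-7 and R-UUO. miR-31-5p rose by 1.52 at UUO-7 and 2.10 at R-UUO. At R-UUO, miR-322-5p, a member of the miR-16 seed family, rose by 1.39, miR-100-5p by 1.30 and miR-19a-3p, of the miR-17-92 cluster, by 1.39. The 2 loci named miR-19b-3p rose by 1.56 and 1.44, and how reads matching both were divided is not known. Without R-UUO replicate 4, 12 of the list rose and 1 fell at R-UUO. The summed PDGFR-β+ markers in R-UUO ECs ran from 7730 to 46296 CPM against 11379 to 24459 CPM in sham ECs, and their part in these changes was not tested.

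In PDGFR-β+ cells, in contrast, both arms fell. In sham, miR-126a-5p measured 2104, 1634, 1808 and 1921 CPM in replicates 1 to 4, and in UUO-2 it measured 2614, 1246, 2075 and 1242 CPM. In UUO-7 it measured 1301, 638 and 491 CPM in replicates 2, 4 and 5, and in R-UUO 355, 584, 522 and 438 CPM in replicates 1, 2, 4 and 5. All UUO-7 and R-UUO libraries lay below the lowest sham library, whereas UUO-2 spanned the sham values. The 5p arm fell by 1.27 on the log2 scale at UUO-7 (SE 0.31, edgeR adjusted p = 0.0033) and by 2.03 at R-UUO (SE 0.29, edgeR adjusted p = 3.74e-05), and at UUO-2 its log2 change was 0.01 (SE 0.28, edgeR adjusted p = 0.996), where the mean CPM lay below sham.

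The 3p arm followed the same course. It measured 484, 407, 456 and 440 CPM in sham, 910, 359, 444 and 463 CPM in UUO-2, 285, 135 and 127 CPM in UUO-7, and 110, 111, 184 and 111 CPM in R-UUO. UUO-7 and R-UUO again did not overlap with sham. The arm fell by 1.35 on the log2 scale at UUO-7 (SE 0.33, edgeR adjusted p = 0.00321) and by 1.85 at R-UUO (SE 0.31, edgeR adjusted p = 0.000153), and its log2 change at UUO-2 was 0.35 (SE 0.30, edgeR adjusted p = 0.505). Calls were common in these comparisons, with 6.29% of 477 loci called at UUO-2, 48.2% at UUO-7 and 41.7% at R-UUO. The median locus, however, lay 0.50 above sham at UUO-7 and 0.40 above at R-UUO, on the opposite side from miR-126a.

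Between UUO-7 and R-UUO the PDGFR-β+ level differed by -0.77 (SE 0.30, edgeR adjusted p = 0.189) for 5p and -0.50 (SE 0.32, edgeR adjusted p = 0.428) for 3p on the log2 scale, not called, where 3.98% of loci were. The R-UUO libraries thus did not return to the sham level in the 14 days of reversal. The PDGFR-β+ markers did not move as 1 set. The 4 arms of miR-143 and miR-145a, known from smooth muscle and pericytes, summed to between 323339 and 396622 CPM in sham, 201847 and 396273 CPM in UUO-2, 126526 and 153195 CPM in UUO-7, and 74669 and 135690 CPM in R-UUO, and each of the 4 fell at UUO-7 and at R-UUO (log2 changes from -1.94 to -1.02 at UUO-7). The arms of miR-199a and miR-214, known from fibroblasts, went the other way, from between 3990 and 4813 CPM in sham to between 4444 and 6879 CPM in UUO-2, 17428 and 21765 CPM in UUO-7, and 18555 and 24976 CPM in R-UUO, and all 6 of their loci rose at both late stages (2.09 to 3.06 at UUO-7). All 8 markers were detected in every library of these groups. The summed Mac markers ran from 63.8 to 177 CPM in sham, 291 to 341 CPM in UUO-2, 281 to 701 CPM in UUO-7 and 122 to 208 CPM in R-UUO. The part of these shifts in the fall of miR-126a was not tested. Nor was the part of any ECs sorted into the PDGFR-β+ gate. With library size alone, the falls were 0.77 and 0.85 at UUO-7 and 1.75 and 1.58 at R-UUO for the 5p and 3p arms, all still called, with the median of all loci then 1.02 and 0.69 above sham.

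**Figure D3:**
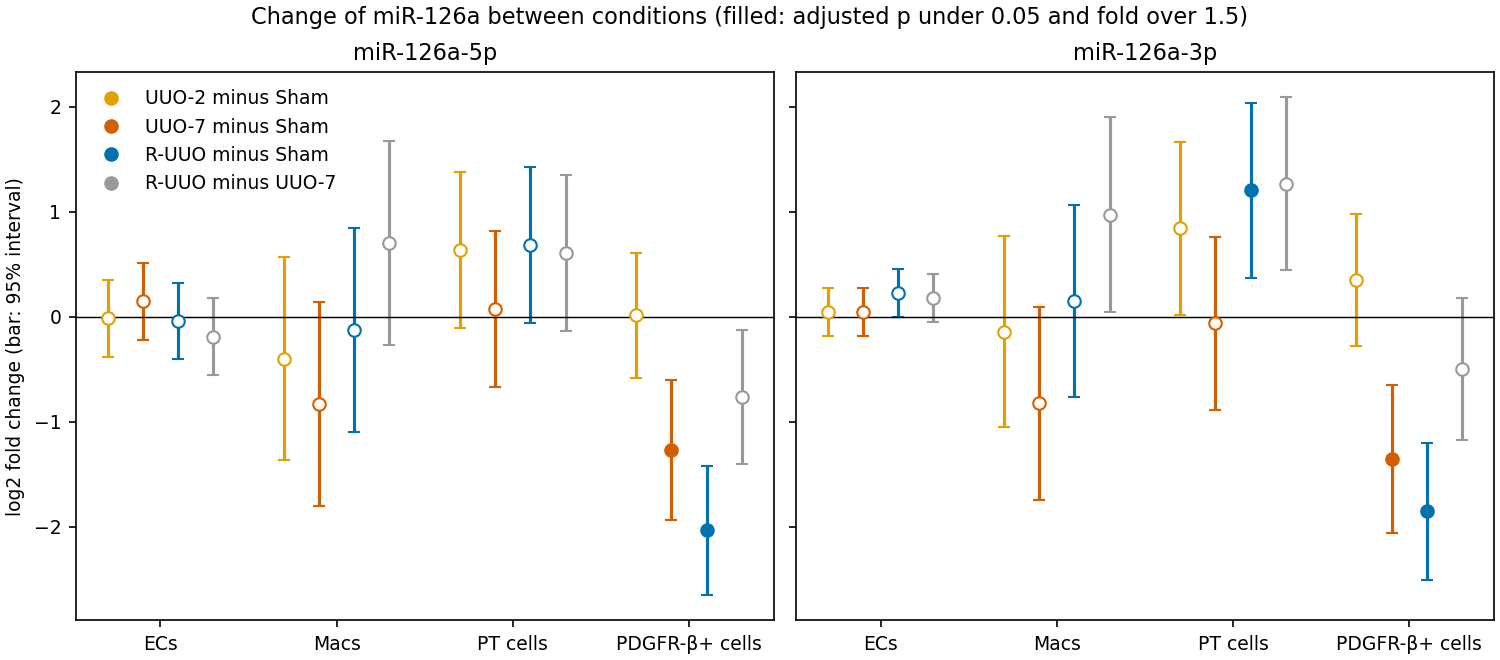
log2 fold change of each arm for 4 comparisons within each cell type, with 95% intervals from edgeR's quasi-likelihood fit, filled where the change was called. Filled points are the PDGFR-β+ falls at UUO-7 and R-UUO in both arms and the PT rise of the 3p arm at R-UUO, and the EC points lie between -0.19 and 0.23.

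The difference in change between the PDGFR-β+ and EC gates was tested directly as an interaction over all 63 libraries. At R-UUO the change in PDGFR-β+ cells was lower than that in ECs by 1.84 on the log2 scale for 5p (SE 0.51, edgeR adjusted p = 0.00621) and by 1.91 for 3p (SE 0.49, edgeR adjusted p = 0.00329), both called, where 23.8% of 671 loci were called. This R-UUO test was added after the data were seen. Leaving out 1 mouse at a time kept the R-UUO difference between -2.07 and -1.61 for 5p and between -2.18 and -1.68 for 3p, called each time. At UUO-7 the difference was -1.25 for 5p (SE 0.53, edgeR adjusted p = 0.0716) and -1.24 for 3p (SE 0.52, edgeR adjusted p = 0.0647), neither called, where 27.3% of loci were. Same-numbered cell types of 1 condition were taken as sorted from the same kidney. With mouse as a block on that assumption, the UUO-7 difference was called for the 3p arm (-1.35, edgeR adjusted p = 0.0443). Without the mouse UUO-7 replicate 2, the highest of its group in PDGFR-β+ cells, it was called for both arms (-1.86 and -1.81, edgeR adjusted p = 0.0191 and 0.0178). As a share of the ECs of the same mouse, the 5p arm in PDGFR-β+ cells was 1.28% to 1.70% in sham and 0.253% to 0.759% in R-UUO.

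Macs showed no called change, with a wide spread in sham. Sham Macs measured 1052, 252, 1273 and 2856 CPM of the 5p arm, so that the highest and the lowest Mac libraries of the study were both sham. In UUO-2 Macs measured 926, 1097, 679 and 847 CPM, in UUO-7 735, 511, 784 and 676 CPM, and in R-UUO 1062, 959, 670 and 1946 CPM, all within the sham range. The log2 changes from sham were -0.40 (SE 0.46), -0.83 (SE 0.46) and -0.12 (SE 0.46) for 5p, the last opposite in sign to the difference of mean log2 CPM (0.12), and -0.14 (SE 0.43), -0.82 (SE 0.44) and 0.15 (SE 0.43) for 3p at UUO-2, UUO-7 and R-UUO. R-UUO exceeded UUO-7 by 0.71 (SE 0.46) for 5p and 0.97 (SE 0.44, edgeR adjusted p = 0.113) for 3p. Among all Mac loci, 27.6%, 43.1% and 31.9% were called against sham at the 3 stages and 19.9% between R-UUO and UUO-7. Without sham replicate 2, the lowest library, the 5p change at UUO-7 was -1.39 (edgeR adjusted p = 0.00238) and the 3p change was -1.35 (edgeR adjusted p = 0.00466), both called, and the 5p change at UUO-2 was also called (-0.94, edgeR adjusted p = 0.0407). Without sham replicate 1 the 3p change at UUO-7 was called as well (-1.17, edgeR adjusted p = 0.049).

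In PT cells the 5p arm had no called change and the 3p arm rose at R-UUO. The 3p arm measured 134, 120, 122 and 73.1 CPM in sham, 359, 167, 136 and 169 CPM in UUO-2, 120, 130, 112 and 98.0 CPM in UUO-7, and 386, 111, 380 and 166 CPM in R-UUO. R-UUO replicates 1 and 4 were high and replicate 2 lay within the sham range. The level of R-UUO replicate 1 rested on the scaling. Its TMM factor was 0.517, against 1.14 to 1.26 in the other R-UUO libraries of PT cells. Unscaled, its share of counts in both arms was 0.0809%, within the sham range of 0.0772% to 0.119%. The 3p change at R-UUO was 1.21 on the log2 scale (SE 0.39, edgeR adjusted p = 0.0223), and that from UUO-7 to R-UUO was 1.27 (SE 0.39, edgeR adjusted p = 0.0851), not called. The 5p changes were 0.64 (SE 0.35), 0.08 (SE 0.35) and 0.68 (SE 0.35, edgeR adjusted p = 0.121) at UUO-2, UUO-7 and R-UUO, with 0.61 (SE 0.35) from UUO-7 to R-UUO, and the other 3p changes were 0.84 (SE 0.39, edgeR adjusted p = 0.127) at UUO-2 and -0.06 (SE 0.39) at UUO-7, where the mean CPM lay above sham (115 against 112). Of 330 loci tested in PT cells, 19.1%, 43.0% and 38.8% were called against sham at the 3 stages and 1.52% between R-UUO and UUO-7.

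The PT call was fragile. R-UUO replicate 1 also had the lowest summed PT markers of all PT libraries (16105 CPM) and the highest summed PDGFR-β+ markers (26002 CPM), whose part in its miR-126a level was not tested. Without that library the 3p change was 0.92 (edgeR adjusted p = 0.0817), and without R-UUO replicate 4 it was 0.98 (edgeR adjusted p = 0.0563), neither called. Leaving out sham replicate 2 (1.17, edgeR adjusted p = 0.0528) or sham replicate 4 (0.99, edgeR adjusted p = 0.0811) also ended the call, as did scaling by library size (0.61, edgeR adjusted p = 0.204) and a fit of the 2 groups alone (1.12, edgeR adjusted p = 0.0613).

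Neither Macs nor PT cells differed from ECs in their response by the interaction test. At UUO-7 the Mac change was -1.06 (SE 0.51, edgeR adjusted p = 0.144) for 5p and -0.95 (SE 0.49, edgeR adjusted p = 0.17) for 3p relative to ECs, where 18.2% of loci were called, and the PT change was 0.12 (SE 0.51) and 0.08 (SE 0.50), where 16.1% were. At R-UUO the Mac change relative to ECs was -0.09 (SE 0.51) for 5p and -0.07 (SE 0.49) for 3p, where 13.3% of loci were called, and the PT change was 0.83 (SE 0.51) and 1.09 (SE 0.50, edgeR adjusted p = 0.173), where 12.4% were. The intervals were wide, reaching 2.09 for the 3p arm in PT cells, so that an equal response was not shown either. Without the mouse sham replicate 2, the Mac difference at UUO-7 was called for 5p (-1.41, edgeR adjusted p = 0.0374).

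The 5p arm was the more abundant in every library. The ratio of 5p to 3p counts, which does not depend on scaling between libraries, ran from 2.83 through a median of 5.11 to 6.46 in ECs. Its median was 3.96 in PDGFR-β+ cells (2.68 to 5.25), 4.47 in PT cells (3.05 to 6.69) and 4.77 in Macs (3.33 to 5.88). As log2 ratios, the means were 2.29 ± 0.28 in ECs, 2.22 ± 0.24 in Macs and 2.24 ± 0.30 in PT cells (SD, n = 16 each) and 1.94 ± 0.30 in PDGFR-β+ cells (SD, n = 15). The 6 pairs of cell types were compared by 2-sided permutation tests with 100000 resamples and adjustment over the 6. These tests pooled the conditions and treated libraries as independent, although the cell types were taken as from the same mice. The ratio was lower in PDGFR-β+ cells than in ECs by 0.35 on the log2 scale (adjusted permutation p = 0.0146), than in Macs by 0.27 (adjusted permutation p = 0.0222) and than in PT cells by 0.29 (adjusted permutation p = 0.0222). With signs flipped within mouse instead, it was lower by 0.34, 0.26 and 0.27 in that order (adjusted permutation p = 0.0022, 0.00604 and 0.0112). ECs, Macs and PT cells differed from each other by 0.02 to 0.08 in size, less than the spread between libraries (adjusted permutation p from 0.632 to 0.846). Group means in PDGFR-β+ cells were lower than in ECs and Macs at each stage and lower than in PT cells at all stages but R-UUO, where they were 1.89 in both. Set beside ECs they stood at 2.06 against 2.37 in sham, 1.74 against 2.29 in UUO-2, 2.13 against 2.46 in UUO-7 and 1.89 against 2.05 in R-UUO.

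**Figure D4:**
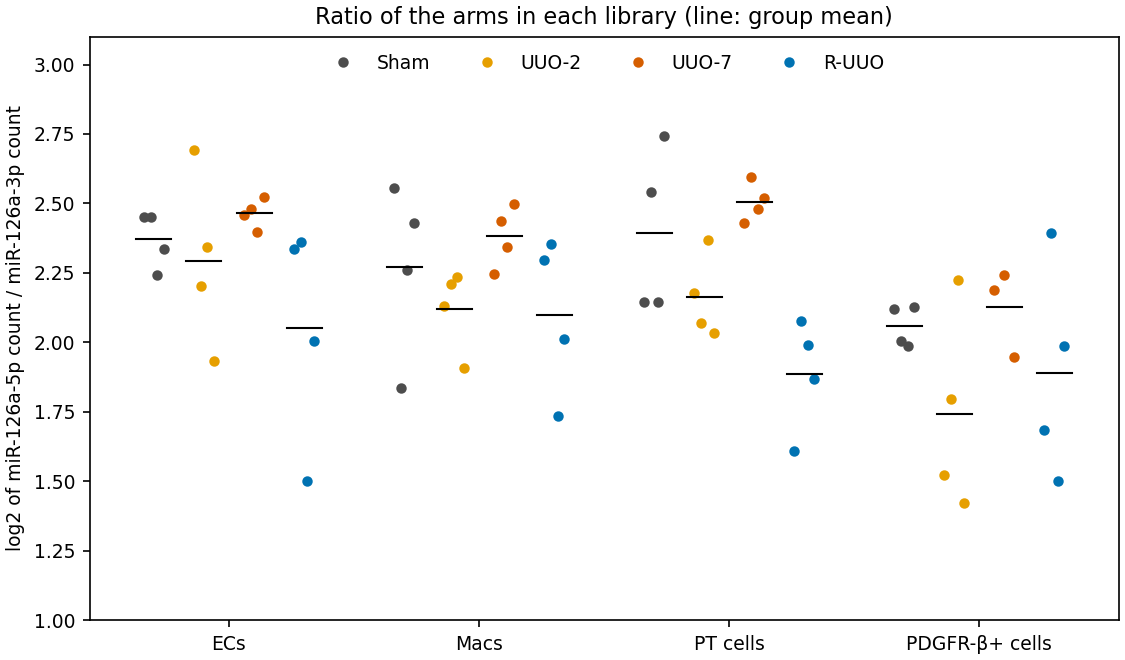
log2 ratio of miR-126a-5p to miR-126a-3p raw counts in each library, by cell type and condition, with a line at each group mean. All libraries lie between 1.42 and 2.74, and PDGFR-β+ cells average 1.94 against 2.22 to 2.29 in the other cell types. The R-UUO group mean is the lowest of the conditions in ECs, Macs and PT cells, and UUO-2 is lowest in PDGFR-β+ cells.

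The arm ratio was also compared between conditions, in groups too small for a firm test. Of 16 comparisons between conditions within a cell type, none passed 0.05 after adjustment over the 16 by exact 2-sided permutation tests, and 3 had an unadjusted p of 0.0286, the smallest that 4 against 4 libraries allow (0.0571 for 3 against 4). At least 10 of the 16 would have to reach that smallest p for any to pass after adjustment, so the absence of calls says nothing of the ratio. These 3 were PT cells at R-UUO against sham (difference in log2 ratio -0.51, adjusted exact p = 0.152), PT cells at R-UUO against UUO-7 (-0.62, adjusted exact p = 0.152) and ECs at R-UUO against UUO-7 (-0.41, adjusted exact p = 0.152). In all 3 the groups did not overlap. In ECs the R-UUO log2 ratios averaged 2.05 ± 0.40 against 2.46 ± 0.05 in UUO-7, and without R-UUO replicate 4 the difference was -0.23. In PDGFR-β+ cells, where both arms fell, the log2 ratio differed from sham by 0.07 at UUO-7 and -0.17 at R-UUO, and groups of this size cannot show whether it stayed the same.

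The miRNAs whose group means were most like those of miR-126a-5p were sought among 638 loci that passed the filter and did not overlap it, by the Pearson correlation of mean log2 CPM over the 16 groups, a description in which 4 EC groups stand apart from 12 others. The 3p arm itself had r = 0.998. The 5 highest other loci were miR-335-5p (r = 0.98), miR-335-3p (r = 0.97), miR-5709-5p (r = 0.97), miR-153-3p (r = 0.95) and miR-488-3p (r = 0.93). The arms of miR-335, encoded on chromosome 6 within the imprinted gene Mest, were the only ones of the 5 above 100 CPM in ECs. Their RefSeq sequences are shown, with the seed in capitals, to set beside that of miR-126a-3p, with which they share no seed.
miR-335-5p: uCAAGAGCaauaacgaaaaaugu
miR-335-3p: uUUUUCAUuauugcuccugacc
miR-335-5p averaged 649 ± 261 CPM in ECs (SD, n = 16) and 8.26 ± 5.01, 9.65 ± 8.67 and 16.2 ± 11.1 CPM in Macs, PT cells and PDGFR-β+ cells. The other 3 were scarce, with EC ranges of 1.14 to 8.09 CPM for miR-5709-5p, 1.08 to 7.32 CPM for miR-153-3p and 4.37 to 23.2 CPM for miR-488-3p, and their values elsewhere were near the level of a few reads.

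These loci did not all follow miR-126a through injury. In PDGFR-β+ cells miR-335-5p measured 7.01 to 17.9 CPM in sham, 17.4 to 41.1 in UUO-2, 10.6 to 16.4 in UUO-7 and 2.38 to 25.7 in R-UUO. Each of the later ranges overlapped that of sham, while all UUO-2 values lay above those of UUO-7. Its log2 changes from sham there were 1.39 (SE 0.56, edgeR adjusted p = 0.154), 0.12 (SE 0.60, edgeR adjusted p = 0.884) and -0.15 (SE 0.56, edgeR adjusted p = 0.836), none called, beside the falls of 1.27 and 2.03 of miR-126a-5p at UUO-7 and R-UUO. Whether the 2 differ was not tested. In PT cells miR-335-5p rose by 2.08 at UUO-2 (SE 0.62, edgeR adjusted p = 0.0279) and by 1.93 at R-UUO (SE 0.63, edgeR adjusted p = 0.0223), from 2 to 7 reads per library in sham. In ECs miR-488-3p was called at UUO-7 (log2 change -1.26, SE 0.36, edgeR adjusted p = 0.0273), and the other 4 had no called change against sham.

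**Figure D5:**
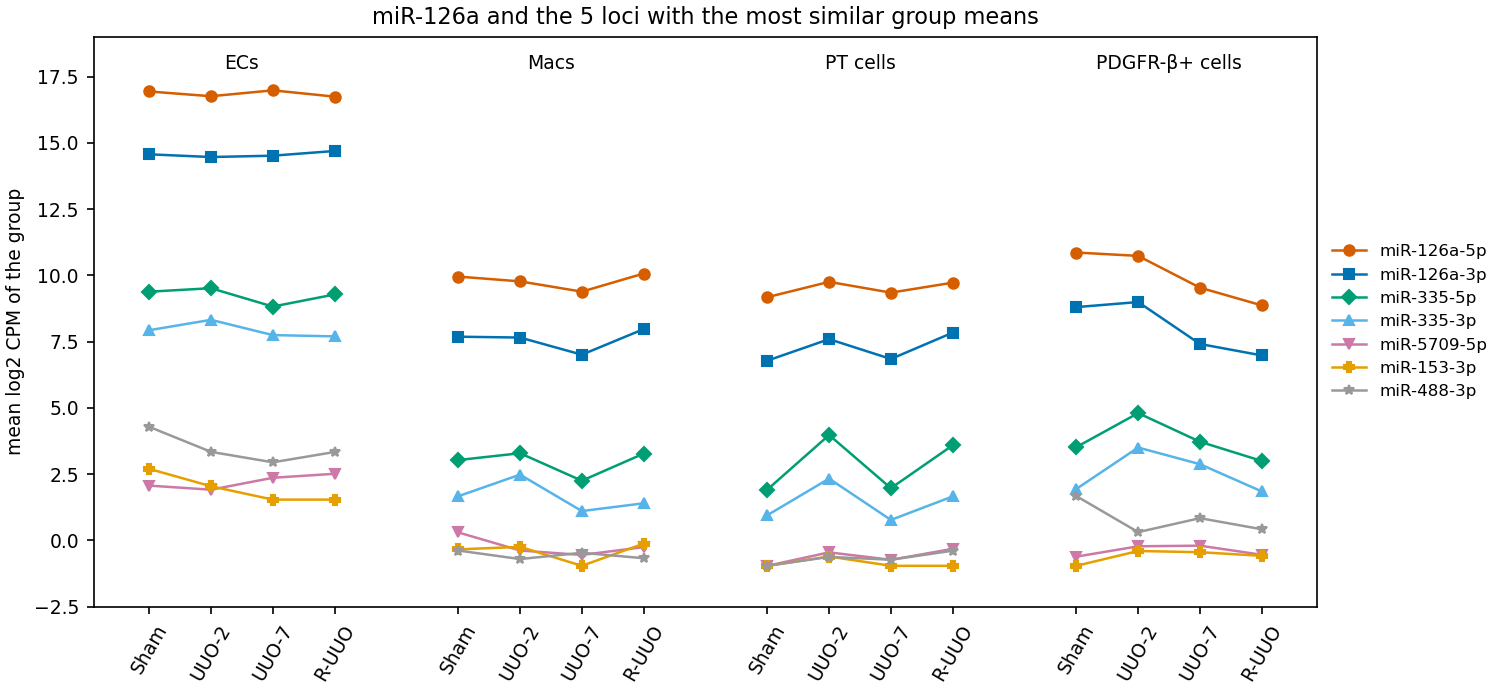
Mean log2 CPM of miR-126a-5p, miR-126a-3p and the 5 loci with the most similar pattern, over the 4 conditions of each cell type. All 7 lines are highest in ECs, and the miR-126a lines descend from UUO-2 to R-UUO in PDGFR-β+ cells.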

How the data were processed

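sRNA-Seq libraries of 4 sorted cell types were analysed from the deposited table of raw counts per miRNA locus, which the authors made by trimming paired reads (Trim Galore 0.4.1, cutadapt 1.1), aligning to GRCm38 with ShortStack and Bowtie, and counting against miRBase. How strand and multiply mapped reads were handled is not given in the sources used here. The table also held a total per locus, not used. Samples were grouped by their labels.

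Members and lists were chosen with earlier results of these data known. The miRNAs named beyond the members were the 5 loci with the highest correlation with miR-126a-5p and, from a list of miRNAs studied in endothelial cells, those called in ECs against sham, at most the 6 with the largest change. Counts were fitted with edgeR 4.0.16 (R 4.3.3: filterByExpr, TMM, quasi-likelihood test, Benjamini-Hochberg adjustment over all loci tested) per cell type, and over all 63 libraries for the order of levels and for interactions. Standard errors were derived from the F statistic, and log2 CPM used a prior count of 2. Arm ratios, with 0.5 added to each raw count, were compared by permutation tests (scipy 1.17.1). Scripts were tested on simulated data. Totals of 616565 to 10819385 counts set the counting error of a library, and no molecular identifiers are named. The standard errors of the fits also take in the spread between libraries.

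Same-numbered libraries of 1 condition were taken as from the same mouse, which neither the labels nor the study's methods state outright. Mouse was therefore tried as a block across cell types (correlation of their deviations from group means -0.29 to 0.27, median 0.05, 93 pairs). Replicate libraries differed by far more than counting noise (chi-square per degree of freedom from 8.96 upwards). Alternatives were DESeq2 1.42.0, the edgeR likelihood ratio test, other scalings, no filter, overlapping loci counted once, fits of the 2 groups alone, replicate blocks and leaving out each library or mouse.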

Additional observations from a re-analysis of the deposited data

Results flagged for a closer look

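By the interaction test, which for R-UUO was added after the data were seen, the PDGFR-β+ change at R-UUO differed from that of ECs. On the log2 scale the difference was -1.84 for miR-126a-5p (edgeR adjusted p = 0.00621) and -1.91 for miR-126a-3p (edgeR adjusted p = 0.00329). PDGFR-β+ cells fell from a mean of 1867 to 475 CPM of the 5p arm (4 libraries each), whereas ECs averaged 125519 CPM in sham and 113922 CPM in R-UUO. At UUO-7 the difference from ECs was -1.25 for 5p and -1.24 for 3p (edgeR adjusted p = 0.0716 and 0.0647), neither called.

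In 5 of 60 sets of 4 libraries examined, 1 library lay far from the other 3, where chance alone gives about 5% of sets. The sets are not independent, since several quantities come from the same libraries, so that 5% is only a rough guide. UUO-2 replicate 1 of the PT cells had a miR-126a-5p level of 10.67 on the log2 CPM scale against 9.44 to 9.46 in the others, and a share of counts in both arms of 0.248% against 0.0983% to 0.108%. Sham replicate 3 of the ECs had a miR-126a-3p level of 14.79 log2 CPM against 14.46 to 14.50. R-UUO replicate 5 of the Macs had 8.91 log2 CPM of miR-126a-3p against 7.55 to 7.76, and R-UUO replicate 4 of the PDGFR-β+ cells had 7.53 against 6.79 to 6.80.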

How the results depend on the processing

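The PDGFR-β+ falls at UUO-7 and R-UUO, in both arms, were called under every alternative tried. Leaving out each library in turn gave -1.74 to -1.05 (5p) and -1.78 to -1.20 (3p) at UUO-7 and -2.13 to -1.95 and -2.08 to -1.78 at R-UUO, and the R-UUO difference from ECs also kept its call. Of 256 refits of the changes within a cell type under other settings, 215 kept direction and side of the threshold, 28 turned sign, 10 gained a call and 3 lost one. The cause of each change below was not tested. Values are log2 differences, with 5p named before 3p. Depth limits PT cells most, where the 3p arm rested on as few as 78 reads.

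With library size in place of TMM, the uncalled EC changes were -0.030 (3p, UUO-2), -0.014 and -0.11 (UUO-7) and -0.086 (3p, R-UUO), and leaving the miR-126 loci out of library size gave -0.049, -0.020, -0.11 and -0.13, and -0.021 for 3p between R-UUO and UUO-7. Under the same 2 scalings, the Mac 3p change at UUO-2 was 0.020 and 0.017, the PT 5p change at UUO-7 -0.26 and -0.26, the PDGFR-β+ 5p change at UUO-2 -0.023 and -0.022, and the PT 3p change at R-UUO 0.61 and 0.61, no longer called. PDGFR-β+ minus Mac was -0.96 and -0.97 (5p) and -0.68 and -0.68 (3p), called on the other side. Mac minus PT was 0.90 and 0.90 (5p) and 0.91 and 0.91 (3p), now called. PDGFR-β+ minus PT was -0.064 and -0.064 (5p) and 0.23 and 0.23 (3p), not called. The PT difference from ECs at UUO-7 was -0.25 and -0.24 (5p) and -0.30 and -0.30 (3p), and the Mac difference at R-UUO 0.13 and 0.16 (5p) and 0.17 and 0.21 (3p). Mean levels became 80489 CPM (5p) and 16085 CPM (3p) in ECs and 1665 and 356 CPM in Macs, and without the miR-126 loci 20017 CPM (3p) in ECs and 1673 and 357 CPM in Macs.

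Without a filter on low counts, EC 5p gave 0.024 (UUO-2) and 0.065 (R-UUO), Mac 3p -0.13 (R-UUO), PT 3p 0.031 (UUO-7) and PDGFR-β+ 5p -0.074 (UUO-2), none called. Calls gained there were Mac UUO-7 (-0.94, -0.94), Mac 3p R-UUO against UUO-7 (0.81), PT 3p UUO-2 (0.87), PT 5p R-UUO (0.73), PT 3p R-UUO against UUO-7 (1.23), PDGFR-β+ 5p R-UUO against UUO-7 (-0.74), and the differences from ECs of Macs (-1.17, -1.06) and PDGFR-β+ cells (-1.27, -1.26) at UUO-7 and of PT cells at R-UUO (0.80, 1.07). With overlapping loci counted once, EC 5p was 0.038 (UUO-2) and 0.048 (R-UUO), Mac 3p -0.060 (R-UUO), PDGFR-β+ minus Mac 5p -0.17, the Mac 3p difference from ECs at R-UUO 0.0021, and Mac minus PT 5p 0.59, now called. DESeq2 gave -0.093 for PDGFR-β+ 5p at UUO-2, -0.094 for PDGFR-β+ minus Mac 5p, -0.23 and -0.27 for the PT difference from ECs at UUO-7, 0.018 for the Mac 3p difference at R-UUO, and a call of 1.27 for PT 3p between R-UUO and UUO-7, which the likelihood ratio test also called (1.27). In fits of the 2 groups alone, PT 3p was called at UUO-2 (0.88) and not at R-UUO (1.12), and PDGFR-β+ 5p at UUO-2 was -0.085. A pseudocount of 5 turned the arm ratio difference between Macs and PT cells to 0.00029.

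With a replicate block, where numbers within a cell type belong to different mice (51 pairs, correlations -0.33 to 0.15, 6 above 0.1), Mac 3p at R-UUO was -0.0074, PT 3p at UUO-7 0.24 and PDGFR-β+ 5p at UUO-2 -0.033, none called. With mouse as the block across cell types, the PDGFR-β+ 3p difference from ECs at UUO-7 was called (-1.35) and the Mac difference at R-UUO was 0.063 (5p) and 0.017 (3p). The block changed no other call on miR-126a.

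Leaving out each library in turn moved the EC changes at UUO-2 between -0.094 and 0.15 (5p) and between -0.0018 and 0.13 (3p), and EC 5p at R-UUO between -0.10 and 0.20. Mac changes ran from -0.94 to 0.077 (5p) and -0.65 to 0.28 (3p) at UUO-2, from -1.39 to -0.37 and -1.35 to -0.42 at UUO-7, and from -0.68 to 0.35 and -0.46 to 0.57 at R-UUO. PT changes ran from -0.057 to 0.16 and -0.25 to 0.026 at UUO-7, from 0.37 to 0.85 and 0.92 to 1.41 at R-UUO, and from 0.99 to 1.51 (3p) between R-UUO and UUO-7. The PT 5p rise was called without R-UUO replicate 2 (0.85), and PT 3p between R-UUO and UUO-7 without R-UUO replicate 2 (1.51) or 5 (1.46). PDGFR-β+ changes at UUO-2 ran from -0.27 to 0.17 and -0.068 to 0.51. Leaving out each mouse, PDGFR-β+ minus Mac 5p ran from -0.20 to 0.27, Mac minus PT from 0.19 to 0.64 and 0.17 to 0.62, both called without UUO-7 replicate 3, and PDGFR-β+ minus PT 5p from 0.33 to 0.62, called without UUO-7 replicate 4. Differences from ECs at UUO-7 ran from -1.41 to -0.36 for Mac 5p, -0.0027 to 0.27 and -0.062 to 0.21 for PT cells, and -1.86 to -0.97 and -1.81 to -1.04 for PDGFR-β+ cells, called also without sham replicate 2 (5p, -1.33) and without UUO-2 replicate 1 (3p, -1.26). At R-UUO they ran from -0.47 to 0.60 and -0.38 to 0.55 for Macs and from 0.81 to 1.49 for PT 3p, called without R-UUO replicate 2. Arm ratio differences ran from -0.066 to 0.027 between Macs and PT cells, from -0.21 to 0.042 for ECs at UUO-2 and from -0.034 to 0.21 for Macs at UUO-7.

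Counts of all loci called moved by over 1.5 times in a few comparisons. In ECs at UUO-2, 8 became 16 with DESeq2, 15 with the likelihood ratio test, 28 without a filter, 5 with library size and 4 with library size without the miR-126 loci. In ECs between R-UUO and UUO-7, 5 became 37, 41, 39, 25 and 24 in that order of settings, 3 with the block and 2 in the fit of 2 groups. In PT cells between R-UUO and UUO-7, 5 became 22, 15 and 24 with DESeq2, the likelihood ratio test and no filter, 2 with overlapping loci counted once, and 0 with either library size, the block or 2 groups, where 38 loci had an unadjusted p below 0.05 with library size. In PDGFR-β+ cells between R-UUO and UUO-7, 19 became 33 with DESeq2, 55 without a filter, 12 with either library size and 7 with 2 groups. At UUO-2, 30 became 49 without a filter in PDGFR-β+ cells and 63 became 96 with 2 groups in PT cells. Leaving out 1 library moved these counts between 4 and 10 (ECs, UUO-2), 1 and 16 (ECs, R-UUO against UUO-7), 0 and 19 (PT cells, R-UUO against UUO-7) and 3 and 75 (PDGFR-β+ cells, R-UUO against UUO-7), and took PT cells at UUO-2 from 63 to as few as 38, PDGFR-β+ cells at UUO-2 from 30 to 19, ECs at UUO-7 from 54 to 35 without sham replicate 2, and the PT difference from ECs at R-UUO from 83 to 55 without R-UUO replicate 1.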

Other observations

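The R-UUO mouse 4 had low arm ratios in more than 1 cell type. Its log2 ratios of miR-126a-5p to miR-126a-3p were 1.50 in ECs, 1.73 in Macs and 1.50 in PDGFR-β+ cells, the lowest R-UUO value in each of these cell types, and 1.99 in PT cells. Over all mice the ratios of 2 cell types from the same mouse correlated with a Pearson r of 0.32 to 0.65 in the 6 pairs of cell types (15 or 16 mice a pair). With the group means removed, r ran from -0.10 to 0.57 and was highest between ECs and Macs. These correlations were examined after the data were seen and are given as a description. Libraries of 1 mouse were taken to share the animal.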
